A study of Homo sapiens with 3 samples.

Results

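The histone genes examined here are the clustered genes of the H1, H2A, H2B, H3 and H4 families, chosen by name as every symbol that starts with HIST1H, HIST2H, HIST3H or HIST4H. The rule found 71 of the 36601 genes in the count tables, of which 6 encode H1, 17 H2A, 18 H2B, 15 H3 and 15 H4. The rule uses no expression value, though this gene family was picked with earlier results of these data known. Of the 71 genes, 55 lie on chromosome 6 (GRCh38, chr6:25723397-27893891), 15 on chromosome 1 and 1 (HIST4H4) on chromosome 12.

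OVCAR3, a long-established HGSOC (high-grade serous ovarian carcinoma) line, was cultured for 48 hours under 3 conditions and profiled by droplet-based 3′ single cell RNA-sequencing (scRNA-seq), to ask how inhibitors of RAC1 and EZH2 alter subpopulations of these cells. The DMSO culture received vehicle, the RAC1i culture received the RAC1 inhibitor NSC23766 at 50 μM, and the Combo culture received the same inhibitor at 50 μM together with the EZH2 inhibitor GSK126 at 5 μM. RAC1 is a small GTPase of cell motility and signaling, and EZH2 is the methyltransferase of the Polycomb complex that modifies histone H3. The culture given the EZH2 inhibitor alone was not analysed here, so EZH2i was seen only on top of RAC1i.

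Each condition was 1 library of 1 cell line, so no difference below has a replicate check and no p-value is given. Each count is a unique molecular identifier (UMI) for 1 captured RNA molecule, and levels are in CPM, the counts of a gene per 1000000 counts of the library's kept cells. Brackets hold exact 95% intervals, which cover counting error only and leave out any variation between cultures. After filtering, 7531, 10215 and 8239 cells were kept in DMSO, RAC1i and Combo, holding 199063947, 234969742 and 212792113 UMIs, at median depths of 26750, 20989 and 24953 per cell. The median share of mitochondrial UMIs was 5.6% in DMSO against 1.66% in RAC1i and 1.58% in Combo, and its part in the differences below was not tested beyond the values given beside them. Between 15 and 23 cell barcodes were shared by each pair of libraries. The epithelial markers EPCAM (320, 274 and 302 CPM) and KRT8 (537, 382 and 395 CPM) were present in all 3 libraries, PAX8 was at 355, 54.3 and 47.8 CPM. Of 6 markers of the line 3 were at least 1.5-fold lower in RAC1i, as were 39.8% of all 13641 genes with a mean of at least 1 CPM, and of 6 markers of other cell types only COL1A1 (5.51, 5.69 and 5.58 CPM) and PECAM1 (0.472, 1.32 and 1.49 CPM) had a mean of at least 1 CPM.

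Core histones H2A, H2B, H3 and H4 form the octamer around which DNA is wrapped, and linker histone H1 binds the DNA between octamers. Most clustered histone genes are replication-dependent: their transcripts accumulate in S phase, when new chromatin is assembled, and end in a conserved stem-loop bound by SLBP in place of a poly(A) tail. A 3′ library primed with oligo-dT captures such transcripts only in part, through internal runs of adenine or through the polyadenylated forms that some members also make. The levels below are therefore levels of captured RNA, and an order between genes is an order of captured molecules.

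The stem-loop is the feature that the members share beyond their names, and it was found by script in an annotated transcript (GENCODE 44) of all 71. The 30-base sites of 8 members on which the results turn are printed 5′ to 3′ on the transcribed strand as DNA letters, with the stem-loop in capitals and the bases just upstream in lower case. HIST1H4C and HIST2H2AC are shown as the members with the most adenine upstream, and the 3 H1 genes for their lower levels after treatment. HIST3H2A and HIST2H2BE are shown for their low ratio of S to G1 level in DMSO. HIST1H4H is shown as a member lower in S than in G1, with ratios of 0.619, 0.389 and 0.395 in DMSO, RAC1i and Combo. Other members had lower ratios than HIST1H4H in DMSO.
HIST1H4C (chr6:26104303-26104332, plus strand): caaaaaaacccaaaGGCCCTTTTCAGGGCC
HIST2H2AC (chr1:149887377-149887406, plus strand): aaaccaagaccaaaGGCTCTTTTTAGAGCC
HIST1H1C (chr6:26055744-26055773, minus strand): tctaaaacccaaaaGGCTCTTTTCAGAGCC
HIST1H1D (chr6:26234217-26234246, minus strand): tgaaaattttaaacGGCTCTTTTCAGAGCC
HIST1H1E (chr6:26157081-26157110, plus strand): caacacaacccaaaGGCTCTTTTCAGAGCC
HIST3H2A (chr1:228457369-228457398, minus strand): ttgatggacataaaGGCTCTTTTCAGAGCC
HIST2H2BE (chr1:149886188-149886217, minus strand): tgcttgactccaaaGGCTCTTTTCAGAGCC
HIST1H4H (chr6:26285131-26285160, minus strand): cattttcaaccaaaGGCCCTTTTCAGGGCC

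Over all kept cells, histone RNA as a whole was slightly higher after RAC1 inhibition, and H1 made up less of it. In DMSO, RAC1i and Combo the 71 genes summed to 966, 1094 and 1084 CPM, a ratio to DMSO of 1.13 [1.13-1.14] and 1.12 [1.12-1.13]. Without HIST1H4C, the most captured member, the sums were 679, 702 and 662 CPM. The 16 measured genes with an annotated transcript longer than the stem-loop form, which do not include HIST1H4C, summed to 265, 390 and 346 CPM. H1 summed to 275, 156 and 160 CPM, a ratio to DMSO of 0.566 [0.559-0.574] in RAC1i and 0.584 [0.576-0.591] in Combo. H4 summed to 336, 494 and 516 CPM, a ratio of 1.47 [1.46-1.49] and 1.54 [1.52-1.55]. H1 thus made up 28.4% of histone UMIs in DMSO but 14.2% in RAC1i and 14.8% in Combo, while H4 made up 34.7%, 45.1% and 47.6%.

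H2A summed to 166, 220 and 216 CPM, a ratio to DMSO of 1.33 in RAC1i and 1.31 in Combo. H2B summed to 162, 191 and 160 CPM, so that its RAC1i ratio was 1.18 and its Combo ratio 0.989 [0.974-1.00]. The H2B value in Combo had no stable direction, with log2 ratios to DMSO from -0.08 to 0.52 over the alternative settings. H3, the least captured type, summed to 28.5, 33.6 and 32.0 CPM, a ratio of 1.18 and 1.12. The order of the types by their ratio to DMSO was not the same in cells with 2 to 4% mitochondrial UMIs, where the H4 ratio was below that of H2A. This band held 949, 2564 and 1791 cells of DMSO, RAC1i and Combo. It lies below the median share of DMSO (5.6%) and above those of RAC1i (1.66%) and Combo (1.58%), so it takes unlike parts of the libraries. The RAC1i log2 ratios there were -0.88 for H1, 0.48 for H2A, 0.39 for H2B, 0.22 for H3 and 0.23 for H4, against -0.82, 0.41, 0.24, 0.24 and 0.56 over all kept cells. In Combo they were -0.69, 0.53, 0.24, 0.26 and 0.27, against -0.78, 0.38, -0.02, 0.17 and 0.62.

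Of the 71 genes, 42 had a mean of at least 1 CPM over the 3 libraries and were compared one by one. The other 29 had a mean of at most 0.799 CPM, 13 of them had under 30 UMIs over the 3 libraries, and HIST1H4K had no UMI at all. Of the 6 H1 genes, HIST1H1A, HIST1H1B and HIST1H1T were among the 29, with 5, 29 and 42 UMIs for HIST1H1A and 1, 3 and 4 for HIST1H1B, a linker histone gene of dividing cells. Counts as low as these show that a gene was barely captured, not that it was silent.

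**Figure D1:**
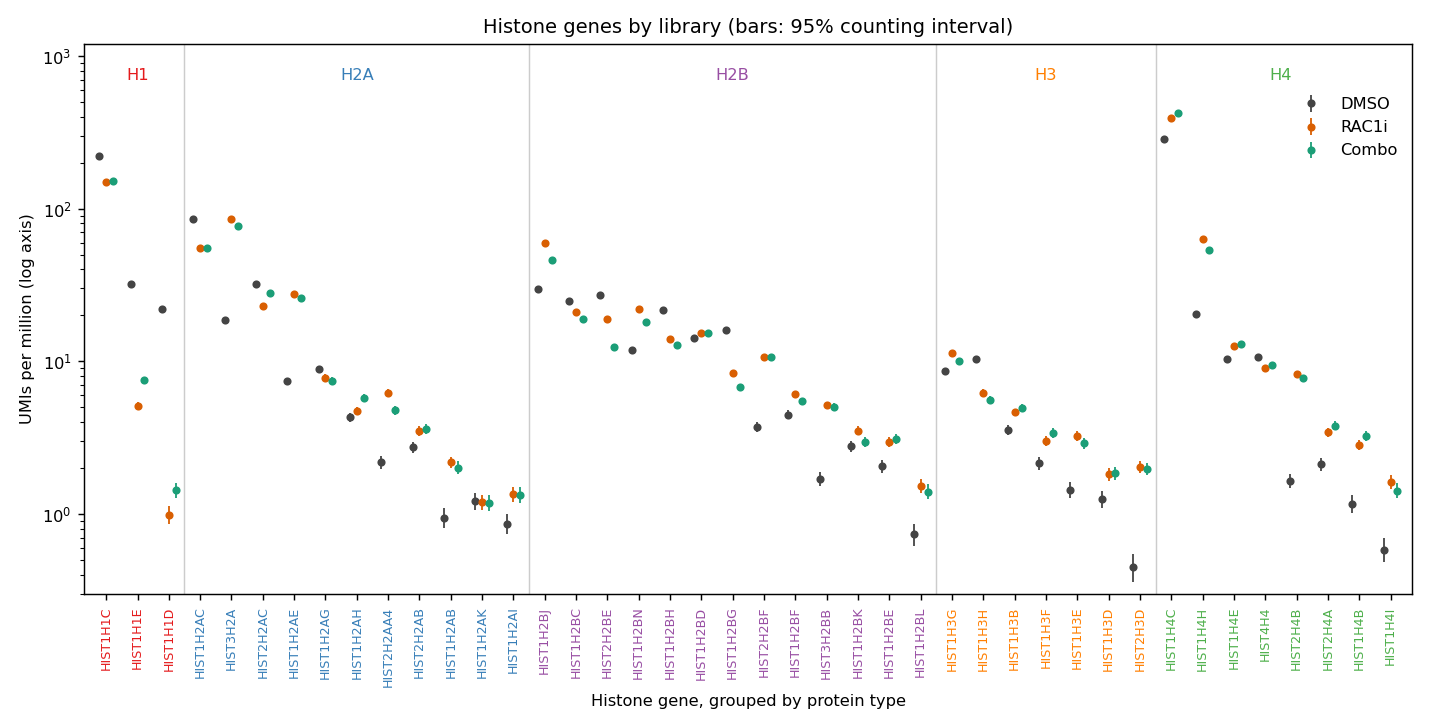
Level of each of the 42 histone genes with a mean of at least 1 CPM, grouped by protein type, in CPM (log axis); each point is 1 library (grey DMSO, orange RAC1i, green Combo) and bars are exact 95% counting intervals. HIST1H1E and HIST1H1D lay far below their DMSO points in both treated libraries, and HIST1H4C and HIST3H2A lay above theirs.

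Between RAC1i and DMSO, 17 of the 42 genes (40.5%) were at least 1.5-fold higher, against 23.8% of all 13641 genes measured at this level, and 6 (14.3%) were at least 1.5-fold lower, against 39.8% of all genes. Between Combo and DMSO, 18 were higher (42.9%, against 22.8% of all genes) and 7 lower (16.7%, against 38.3%). The median log2 ratio of the 42 genes was 0.45 in RAC1i and 0.52 in Combo, where the median of all 13641 genes was -0.26 and -0.23. Over the histone genes with a mean of at least 10 CPM the medians were smaller, at 0.109 and 0.102. The 2 comparisons use the same DMSO library. The filter was a mean over 1 DMSO and 2 treated libraries, for histone genes and all genes alike. A gene low in DMSO could thus pass it through the treated libraries. HIST2H3D, HIST1H4I, HIST1H2BL, HIST1H2AI and HIST1H2AB were under 1 CPM in DMSO, and all of them were higher in RAC1i. By type, RAC1i had 5 of 11 H2A, 5 of 13 H2B, 2 of 7 H3, 5 of 8 H4 and 0 of 3 H1 genes on the higher side, and 1, 2, 1, 0 and 2 on the lower side.

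Combo and RAC1i differed little. Only HIST2H2BE was 1.5-fold lower in Combo than in RAC1i, 1 of 42 genes against 1.14% of all genes, and no histone gene was 1.5-fold higher, against 0.814%. The median log2 ratio of Combo to RAC1i was -0.04 over the histone genes and 0.02 over all genes.

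The 3 captured linker histone genes were lower in both treated libraries, by very different amounts. HIST1H1C, the most captured H1 gene, was at 220, 149 and 151 CPM, a ratio to DMSO of 0.677 [0.668-0.687] and 0.685 [0.676-0.695]. HIST1H1E was at 32.0, 5.10 and 7.50 CPM, 6.27-fold lower in RAC1i and 4.26-fold lower in Combo. HIST1H1D (chr6:26234212-26234987, minus strand, 1 exon) was at 22.2, 0.987 and 1.43 CPM, 22.4-fold lower in RAC1i and 15.5-fold lower in Combo. HIST1H1D therefore had the lowest ratio to DMSO of all 42 genes, and HIST1H1E the next. Both were somewhat higher in Combo than in RAC1i, by 1.45-fold [1.22-1.73] and 1.47-fold [1.36-1.59]. In cells with 2 to 4% mitochondrial UMIs, a band chosen after the data were seen, the log2 ratio of RAC1i to DMSO was -4.01 for HIST1H1D and -2.66 for HIST1H1E, against -4.49 and -2.65 over all kept cells.

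The H1 promoters had a motif in common. The H1 box (AAACACA), searched on both strands from 250 bases before to 50 after the start site, was found in 6 of 6 H1 promoters, in 3 of the 55 other members with a promoter in the table, and in 5.76% of 27305 promoters. The promoters of the 3 captured H1 genes are shown from RefSeq (GRCh38.p14) because their letters can be set against their different responses. Capitals mark the H1 box, the CCAAT box and the TATA box (TATAAA) in either orientation.
HIST1H1C (chr6:26056421-26056720, minus strand): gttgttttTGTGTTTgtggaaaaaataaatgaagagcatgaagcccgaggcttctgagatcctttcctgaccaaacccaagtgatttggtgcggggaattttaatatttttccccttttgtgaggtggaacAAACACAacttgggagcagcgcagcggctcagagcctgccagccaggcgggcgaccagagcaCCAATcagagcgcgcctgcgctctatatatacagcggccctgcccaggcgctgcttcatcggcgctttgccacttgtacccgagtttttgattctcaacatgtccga
HIST1H1D (chr6:26234938-26235237, minus strand): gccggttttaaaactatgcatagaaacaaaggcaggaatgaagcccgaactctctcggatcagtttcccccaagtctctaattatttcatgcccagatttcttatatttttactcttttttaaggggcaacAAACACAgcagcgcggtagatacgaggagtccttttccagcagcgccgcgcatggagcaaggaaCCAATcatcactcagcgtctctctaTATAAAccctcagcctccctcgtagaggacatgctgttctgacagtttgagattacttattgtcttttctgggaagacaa
HIST1H1E (chr6:26156079-26156378, plus strand): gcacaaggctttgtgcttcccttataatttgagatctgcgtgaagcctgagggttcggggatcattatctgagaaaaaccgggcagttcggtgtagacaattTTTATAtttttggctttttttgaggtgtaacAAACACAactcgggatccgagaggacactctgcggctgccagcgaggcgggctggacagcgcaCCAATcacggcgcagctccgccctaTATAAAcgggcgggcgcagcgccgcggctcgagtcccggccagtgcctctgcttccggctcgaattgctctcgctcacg
All 3 carry an H1 box followed downstream by a CCAAT box. The exact letters TATAAA were found in HIST1H1D and HIST1H1E and not in HIST1H1C. Near that place the HIST1H1C window reads tatatata, a similar stretch that the search for exact letters did not mark. These matches are descriptions of the letters in the window and were not tied by any test to the levels.

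Among the H4 genes, HIST1H4C (ENSG00000197061, chr6:26103933-26104337, plus strand, 1 exon) was the most captured histone gene in every library, with 29.8%, 35.8% and 39.0% of all histone UMIs. Its level was 288, 392 and 423 CPM, a ratio to DMSO of 1.36 [1.35-1.38] and 1.47 [1.45-1.48]. In cells with 2 to 4% mitochondrial UMIs the log2 ratios were 0.05 and 0.11, against 0.45 and 0.55 over all kept cells, so the gap to DMSO was much smaller there. HIST1H4H, a gene with longer spliced transcripts, was at 20.3, 63.1 and 53.4 CPM, a ratio of 3.10 and 2.63. HIST1H4E was at 10.3, 12.7 and 12.9 CPM, and its span overlaps other annotated genes on its strand. HIST2H4B had the highest ratio of all 42 genes, 4.99 [4.43-5.62] in RAC1i and 4.72 [4.19-5.33] in Combo, from levels of 1.65, 8.22 and 7.78 CPM. HIST2H4B has a near-identical copy, HIST2H4A, and reads that fit both copies equally are not counted for either, so its values are uncertain.

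The H2A genes lay on both sides of their DMSO levels. HIST1H2AC lay on the lower side, at 85.0, 54.9 and 55.5 CPM, a ratio to DMSO of 0.646 and 0.654. HIST3H2A (ENSG00000181218, chr1:228434777-228457873, minus strand) was at 18.6, 85.4 and 77.4 CPM, a ratio of 4.59 [4.43-4.75] and 4.16 [4.01-4.31]. HIST1H2AC was thus the most captured H2A gene in DMSO and HIST3H2A in both treated libraries. HIST1H2AE was at 7.41, 27.5 and 26.0 CPM, a ratio of 3.72 and 3.5, with annotated overlap on its strand. HIST2H2AC was at 31.9, 23.0 and 28.2 CPM, a ratio of 0.721 [0.695-0.748] in RAC1i and 0.884 [0.853-0.915] in Combo. HIST1H2AH was at 4.31, 4.73 and 5.76 CPM, a ratio of 1.10 [1.00-1.2] in RAC1i, and HIST1H2AB was at 0.944, 2.17 and 2.01 CPM.

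H2B genes moved in both directions. HIST1H2BJ, the most captured of them, was at 29.6, 59.9 and 45.8 CPM, a ratio to DMSO of 2.02 and 1.55, and HIST1H2BN was at 11.9, 22 and 18.2 CPM, a ratio of 1.85 and 1.53. On the lower side, HIST1H2BG was at 16.1, 8.36 and 6.74 CPM and HIST1H2BH at 21.8, 14 and 12.7 CPM, with RAC1i ratios of 0.518 and 0.643. HIST2H2BE was at 27.3, 19.0 and 12.4 CPM, with a Combo to RAC1i ratio of 0.653 [0.622-0.685]. HIST1H2BC was at 24.8, 20.9 and 19.1 CPM and HIST1H2BD at 14.3, 15.4 and 15.3 CPM. HIST1H2BE, a less captured gene, was at 2.06, 2.95 and 3.09 CPM.

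The H3 genes were the least captured. HIST1H3G, the most captured by its mean over the 3 libraries, was at 8.66, 11.3 and 10.0 CPM, and HIST1H3H was at 10.3, 6.23 and 5.57 CPM, a ratio to DMSO of 0.604 and 0.540. HIST1H3E was at 1.44, 3.24 and 2.90 CPM. HIST2H3D was at 0.447, 2.03 and 1.97 CPM, a ratio of 4.53 [3.61-5.75] and 4.41 [3.5-5.61]. The 30 bases before its stem-loop nearly match those of HIST2H3PS2. Besides the genes already marked, HIST1H1E, HIST1H2AC, HIST3H2A, HIST1H2BC, HIST1H2BD, HIST1H2BE, HIST1H2BH, HIST3H2BB and HIST1H3E overlap another annotated gene on their strand. Where the reference of the counts also holds that gene, reads that fit both equally are not counted for either.

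Cells were then placed in the cell cycle from lists of S-phase and G2/M genes that contain none of the 71 histone genes. A cell was called S where its S score was above 0 and the higher of the pair, G2M likewise, and G1 where neither score was above 0, so that G1 here also covers cells outside the cycle. In DMSO 2300 of 7531 cells were called S (30.5%, exact 95% interval 29.5-31.6%). RAC1i had 1544 of 10215 (15.1%, 14.4-15.8%) and Combo 1561 of 8239 (18.9%, 18.1-19.8%). After thinning every cell to 5000 UMIs the shares were 28.2%, 16.8% and 19.4%. A call from a score is a range and not a cell type: 7.42%, 11.9% and 13.8% of cells lay within 0.02 of the S limit. The contrast between the called phases was itself narrower after treatment, since the summed S-phase list was 3.01 times as high in S as in G1 cells in DMSO, against 1.83 in RAC1i and 1.81 in Combo.

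In DMSO some histone genes were higher in S than in G1 cells, some were lower, and the rest fell within the 1.5-fold limit. Of the 42 genes, 15 (35.7%) were at least 1.5-fold higher in S than in G1 cells, against 6.17% of all genes, and 9 (21.4%) were at least 1.5-fold lower, against 2.95%. In RAC1i 9 were higher (21.4%, against 3.51%) and 12 lower (28.6%, against 1.87%), and in Combo 14 were higher (33.3%, against 3.14%) and 12 lower (28.6%, against 2.14%). The ratio of S to G1 level, summed over all members, was 1.45, 1.09 and 1.3 for the 3 libraries. Without HIST1H4C it was 1.00, 0.740 and 0.783. The ratio of G2M to G1 level over all members was 1.45, 0.922 and 1.04. In DMSO the sum was thus as high in G2M cells as in S cells.

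Types differed in the S to G1 ratio too. H4 had S to G1 ratios of 3.60, 1.57 and 2.07, beside G2M to G1 ratios of 3.69, 1.10 and 1.43. H1 had S to G1 ratios of 1.24, 0.707 and 0.694, a sum made up mostly of HIST1H1C. HIST1H1D and HIST1H1E were higher in S in all 3 libraries. H2A was at 0.955, 0.844 and 0.903, H2B at 0.763, 0.691 and 0.731, and H3 at 1.21, 1.15 and 1.41. For H2A and H2B, then, the summed level was lower in cells called S than in cells called G1 in every library. Along the S score, H2A in DMSO was instead 1.10-fold higher in the highest of 10 parts than in the lowest.

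The 5 genes with the highest S to G1 ratio in DMSO came from 3 types. HIST1H1D was at 4.99 CPM in G1 and 36.0 in S cells of DMSO, a ratio of 7.21 [6.42-8.12]. HIST1H4C was at 64.2 CPM in G1 and 396 in S, a ratio of 6.17 [5.97-6.37]. HIST1H2AH had a ratio of 6.02 [4.71-7.78], HIST2H2AC of 5.49 [5.02-6.02] and HIST1H2AB of 4.24 [2.56-7.33]. HIST1H1E, with 3.88 [3.57-4.22], also belonged to this side.
In RAC1i and Combo the same ratios were 3.42 and 3.42 for HIST1H1D, 1.94 and 2.65 for HIST1H4C, 2.41 and 2.62 for HIST1H2AH, 2.00 and 2.52 for HIST2H2AC, 1.82 and 2.28 for HIST1H2AB, and 2.67 and 2.92 for HIST1H1E. By these phase calls all of them were nearer to 1 than in DMSO, alongside the narrower contrast of the S-phase list given above.

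The 5 lowest ratios in DMSO belonged to HIST2H2BE (0.355 [0.328-0.383]), HIST1H2BE (0.379 [0.276-0.513]), HIST3H2A (0.420 [0.384-0.459]), HIST1H4E (0.429 [0.379-0.484]) and HIST1H3E (0.449 [0.325-0.613]). HIST2H2BE was at 41.3 CPM in G1 and 14.7 in S cells of DMSO. HIST3H2A was at 27.1 CPM in G1 and 11.4 in S, and HIST1H2AC, with 110 and 67.0 CPM, had a ratio of 0.608. HIST1H1C stood apart from the other linker genes, at 239 CPM in G1 and 237 in S of DMSO, a ratio of 0.994 [0.972-1.02]. After treatment its ratio was 0.653 in RAC1i and 0.625 in Combo.

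**Figure D2:**
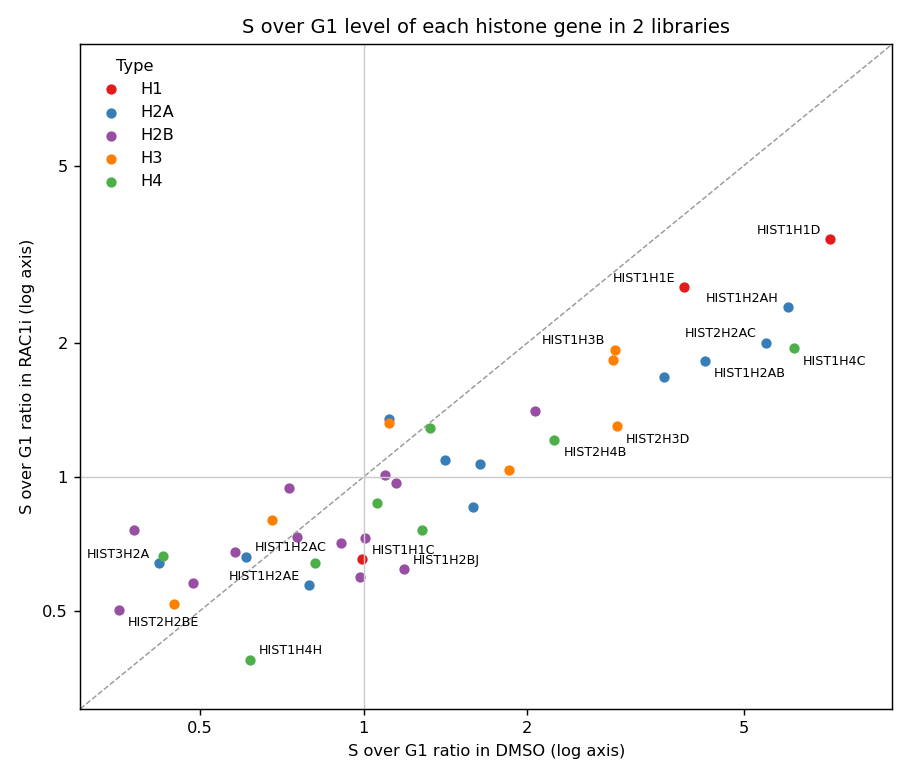
Ratio of S to G1 level for each of the 42 histone genes, in DMSO (horizontal, log axis) against RAC1i (vertical, log axis), colored by protein type; the dashed line marks equal ratios. HIST1H1D, HIST1H4C, HIST1H2AH and HIST2H2AC lay far right of 1 and below the dashed line, and HIST2H2BE and HIST3H2A lay left of 1.

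Within the S cells, treated libraries held more HIST1H4C and less linker histone RNA. In S cells HIST1H4C was at 396, 630 and 741 CPM, a ratio to DMSO of 1.59 [1.56-1.62] and 1.87 [1.84-1.90]. HIST1H1D was at 36.0, 2.41 and 2.79 CPM, a ratio of 0.0670 [0.0531-0.0834] and 0.0776 [0.0640-0.0934]. HIST1H1E was at 43.5, 10.3 and 14.1 CPM and HIST1H1C at 237, 115 and 117 CPM. The lower level of the 3 H1 genes was thus present within the cells called S.

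The difference in HIST1H4C was larger among cells called G1 than among cells called S. In G1 cells it was at 64.2, 324 and 279 CPM, a ratio to DMSO of 5.05 [4.90-5.21] and 4.35 [4.22-4.50]. Among cells called G2M, the summed H4 genes were much nearer to DMSO, with ratios of 1.09 [1.07-1.11] and 1.25 [1.23-1.27]. The same sum had ratios of 3.67 and 3.21 in G1 cells and 1.60 and 1.85 in S cells. HIST2H2AC, at 8.56, 20.4 and 20.1 CPM in G1 cells, had ratios of 2.38 and 2.35, while in S cells it was at 47.0, 40.7 and 50.7 CPM with ratios of 0.865 [0.811-0.923] and 1.08 [1.02-1.14]. HIST1H2AH had a G1 ratio of 3.23 and an S ratio of 1.29 in RAC1i. In contrast, HIST3H2A had a larger RAC1i to DMSO ratio in S cells (5.45) than in G1 cells (3.58). Over 5 ways of assigning phase, the G1 ratio of HIST1H4C in RAC1i ranged from 3.70 to 5.05 and the S ratio from 1.28 to 1.59. The summed S-phase list was also higher in G1 cells of the treated libraries (1068, 1237 and 1256 CPM), and its part in these values was not tested.

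**Figure D3:**
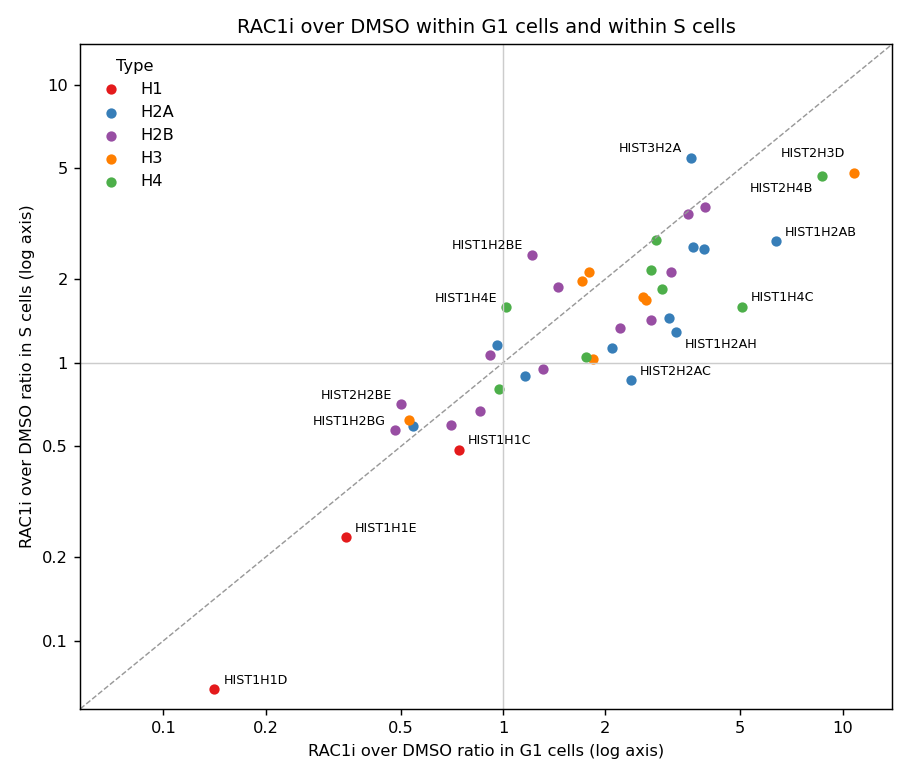
Ratio of RAC1i to DMSO level of each histone gene within cells called G1 (horizontal, log axis) and within cells called S (vertical, log axis), colored by protein type; the dashed line marks equal ratios. HIST1H1D, HIST1H1E and HIST1H1C lay below 1 in both phases, HIST1H4C was at 5.05 in G1 and 1.59 in S, and HIST3H2A was above 1 in both.

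Summed over all members, the RAC1i to DMSO ratio was 1.48 in G1, 1.12 in S and 0.941 [0.931-0.951] in G2M cells. In Combo these ratios were 1.36, 1.22 and 0.976 [0.966-0.987], so in both treated libraries the sum lay slightly below DMSO in G2M cells. The levels were also set to the phase shares of DMSO. On that scale H1 was at 275, 140 and 144 CPM (ratios to DMSO 0.508 and 0.523) and H4 at 336, 536 and 577 CPM (1.60 and 1.72). HIST1H1D had ratios of 0.0567 and 0.0782, HIST1H1E of 0.194 and 0.275, and HIST3H2A of 4.15 and 3.87. Direction turned for the sum without HIST1H4C in RAC1i, from a ratio of 1.03 to 0.961, while HIST2H2AC in Combo went from 0.884 to 1.01 and HIST1H2BD in Combo from 1.07 to 0.995. HIST1H2AK, which lay close to DMSO, went from 0.980 to 1.03 in RAC1i and from 0.974 to 1.02 in Combo.

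Levels were also followed along the S score, without a limit between phases. Cells of the 3 libraries were ranked together and cut into 10 equal parts. H1 was below DMSO in 10 of 10 parts in both RAC1i and Combo, and H4 above DMSO in 10 of 10, by 1.16- to 2.86-fold in RAC1i and 1.42- to 2.60-fold in Combo. From the lowest to the highest part, HIST1H4C went from 32.9 to 583 CPM in DMSO, from 136 to 676 in RAC1i and from 109 to 829 in Combo. HIST1H1D went from 4.09 to 50.4 CPM in DMSO, from 0.522 to 5.08 in RAC1i and from 0.916 to 5.87 in Combo. From the lowest to the highest part HIST1H1D was thus 12.3-fold higher in DMSO, 9.74-fold in RAC1i and 6.41-fold in Combo, at a much lower level after treatment. The same contrast in HIST1H4C was 17.8-fold, 4.99-fold and 7.60-fold. HIST1H1E was 6.62-fold higher in DMSO, 7.87-fold in RAC1i and 6.92-fold in Combo, so its contrast along the score was not narrower after treatment. HIST1H2AE lay above DMSO, and HIST1H2BG, HIST1H2BH and HIST1H3H below DMSO, in 10 of 10 parts of both treated libraries.

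**Figure D4:**
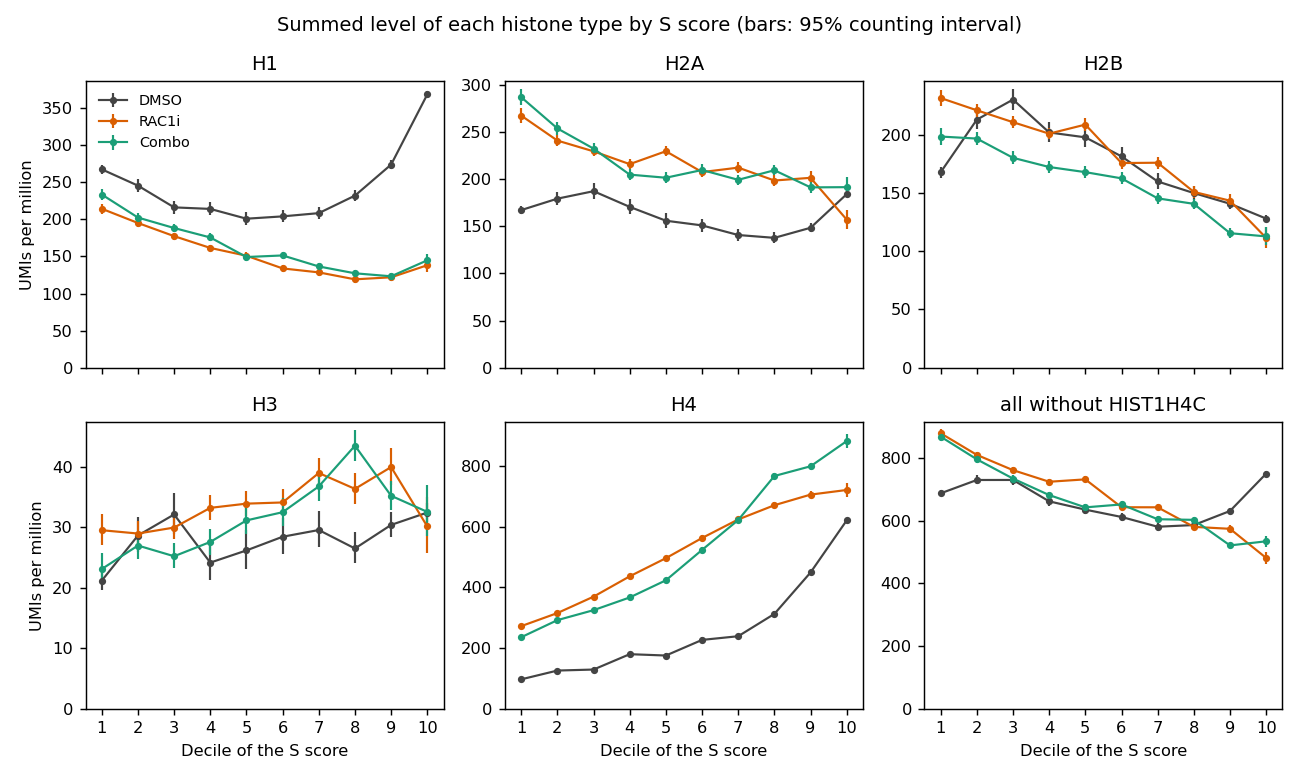
Summed level of each histone type, and of all members without HIST1H4C, in CPM along 10 equal parts of the S score ranked over all kept cells (grey DMSO, orange RAC1i, green Combo); bars are exact 95% counting intervals. H1 lay below DMSO and H4 above DMSO in each part for both treated libraries, and in DMSO H1 climbed to 368 CPM in the highest part.

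Per cell, histone RNA was seen nearly everywhere and a single member in only part of the cells. With each cell thinned to 5000 UMIs, at least 1 histone UMI was found in 95.1%, 96.4% and 96.2% of cells, with a mean of 4.62, 5.61 and 5.61 histone UMIs and 3.0, 3.57 and 3.48 different members per cell. HIST1H4C was seen in 41% [39.8-42.2], 55.8% [54.8-56.8] and 56.1% [55.0-57.2] of the cells of DMSO, RAC1i and Combo. Among G1 cells these shares were 19.0%, 49.8% and 47.1%, and among S cells 55.4%, 71.6% and 74.3%. Among G2M cells they were 52.1%, 62.0% and 64.7%. HIST1H1D was seen in 12.6% of S cells of DMSO [11.2-14.2], 1.18% of RAC1i [0.674-1.90] and 1.23% of Combo [0.719-1.97], and in 34.6%, 4.53% and 5.96% without thinning. HIST3H2A was seen in 9.40%, 29.9% and 28.1% of all cells after thinning. All cells were of 1 line, so no cell type that lacks histone RNA was at hand to measure the share that free RNA in the droplets gives. Thinning left out 806, 1015 and 885 shallower cells.

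The S-phase pattern went along with the annotated ends of the genes. Of the 42 genes, 16 had an annotated transcript that runs past the stem-loop or lacks it, and 26 had stem-loop transcripts alone. The median S to G1 ratio in DMSO was 0.715 over the 16 and 1.61 over the 26, and it was above 1 in 5 of the 16 and in 20 of the 26. In RAC1i the medians were 0.695 and 1.29, and in Combo 0.685 and 1.5. Over all genes the median ratio was 1.04 in RAC1i and 1.02 in Combo, and no such value was obtained for DMSO. Over the 16 genes the summed level was 265, 390 and 346 CPM, and over the 26 it was 697, 698 and 732 CPM. HIST3H2A, HIST1H4H, HIST1H2BJ and HIST1H2BN, all higher after treatment, have a longer annotated transcript, and HIST1H2AC and HIST2H2BE, both lower, do as well. A 7-gene list of members known for polyadenylated transcripts had a median S to G1 ratio of 0.908, 0.662 and 0.628. In RAC1i 1 of the 7 (HIST1H2BJ) was 1.5-fold higher and 1 (HIST1H2AC) lower, beside 23.8% and 39.8% of all genes. The list includes HIST1H1C and HIST1H2BK, although both are counted by annotation among the 26. HIST1H1C alone was at 220 CPM of the list's 404 CPM in DMSO.

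The 2 members with the most adenine ahead of the stem-loop were among those highest in S. Over all 71 genes the 30 bases before the stem-loop held a median of 10 adenines, with a range of 5 to 21. HIST1H4C held 21 and HIST2H2AC 18, as the lower-case letters of their sites show in part. The count did not by itself mark genes higher in S than in G1. HIST1H1D, with the highest S to G1 ratio, held 8, and HIST1H2BH, with 14, had a ratio of 1.15. HIST2H2BE held 5 and HIST3H2A 6. These counts leave out adenines elsewhere in the transcript. In the richest 15 bases of its stem-loop transcript HIST1H1D had 11 adenines, and of the 71 genes only HIST1H4C had more, with 13. HIST1H1E also had 11, as did the barely captured HIST1H1A and HIST1H2AA, the latter an H2A gene. Priming at such adenines was not measured here.

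**Figure D5:**
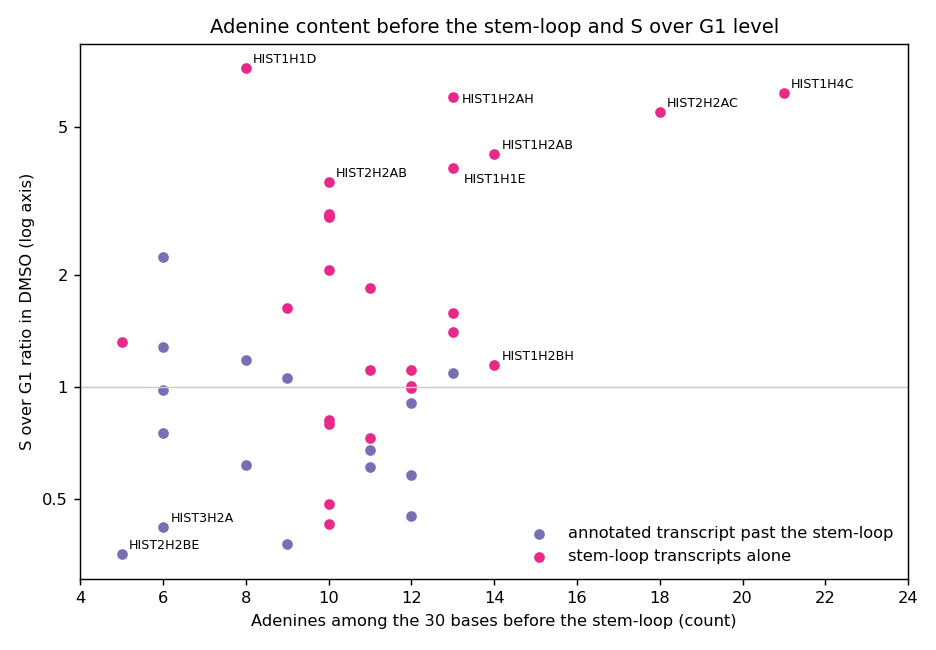
Ratio of S to G1 level in DMSO (vertical, log axis) against the number of adenines among the 30 bases before the stem-loop, 1 point per histone gene, with genes whose annotated transcripts all end at the stem-loop in pink and those with a longer transcript in violet. HIST1H4C and HIST2H2AC stood alone at 21 and 18 adenines, and HIST1H1D reached the highest ratio with 8.

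Many H2A and H2B genes lie head to head, with a short stretch of DNA between their start sites. There were 12 such pairs, with start sites 194 to 251 bases apart, and in 8 of them both genes had a mean of at least 1 CPM. In 3 of the 8 pairs the partners lay on opposite sides of DMSO in RAC1i. Over all 42 genes 29 lay above DMSO and 13 below, and the count was not set against other pairings of these genes. HIST1H2AE had a log2 ratio of 1.89 and its partner HIST1H2BG of -0.95, HIST1H2BJ of 1.02 and its partner HIST1H2AG of -0.19, and HIST1H2BN of 0.89 and its partner HIST1H2AK, which barely differed from DMSO, of -0.03. With phases weighted as in DMSO, HIST1H2AK was above DMSO, on the same side as HIST1H2BN. HIST3H2A and HIST3H2BB, 230 bases apart, were both higher, with log2 ratios of 2.20 and 1.60. Partners outside the naming rule are given for their position beside a named gene.

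HIST2H2AC and HIST2H2BE, 236 bases apart, had nearly opposite S-phase patterns, with S to G1 ratios of 5.49 and 0.355 in DMSO, 2.00 and 0.503 in RAC1i, and 2.52 and 0.484 in Combo. Their log2 ratios to DMSO were close in RAC1i, at -0.47 and -0.53, and apart in Combo, at -0.18 and -1.14. The shared window of this pair and that of HIST1H2AE and HIST1H2BG are printed from RefSeq (GRCh38.p14), the former for the S to G1 ratios of its partners and the latter for their opposite ratios to DMSO. Capitals mark the octamer (ATTTGCAT), the CCAAT box, the TATA box and the H1 box, each in either orientation.
HIST2H2AC and HIST2H2BE (chr1:149886668-149886967, plus strand): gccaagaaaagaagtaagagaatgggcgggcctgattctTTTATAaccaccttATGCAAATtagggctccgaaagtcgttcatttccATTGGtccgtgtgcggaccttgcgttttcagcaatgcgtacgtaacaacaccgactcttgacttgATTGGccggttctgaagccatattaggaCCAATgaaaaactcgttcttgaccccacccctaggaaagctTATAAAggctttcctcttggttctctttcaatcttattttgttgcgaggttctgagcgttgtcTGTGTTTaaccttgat
HIST1H2AE and HIST1H2BG (chr6:26216671-26216970, plus strand): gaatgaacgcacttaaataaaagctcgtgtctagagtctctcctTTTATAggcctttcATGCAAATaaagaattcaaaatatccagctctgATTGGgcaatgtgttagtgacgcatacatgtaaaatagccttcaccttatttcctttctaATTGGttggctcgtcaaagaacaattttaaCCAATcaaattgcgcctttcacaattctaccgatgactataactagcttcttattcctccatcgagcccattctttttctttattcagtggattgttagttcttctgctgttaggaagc
Each window holds 1 octamer and a TATAAA match near the H2B end, and the first also holds a TATAAA match near the H2A end. Over the members, the octamer was found in 11 of 16 H2A and 9 of 13 H2B promoters and in 1.80% of all promoters, CCAAT in 51 of 61 members against 35.7%, and TATAAA in 41 of 61 against 12.0%.

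The machinery around these genes did not move as 1 group. Of 16 measured genes of histone mRNA synthesis, processing and decay, 5 were 1.5-fold lower and 1 higher in RAC1i, where 39.8% of all genes were lower and 23.8% higher. Their median log2 ratio was 0.12. SLBP, the stem-loop binding protein, was at 55.5, 34.8 and 39.5 CPM, and NPAT, the coactivator of histone transcription, at 10.1, 11.4 and 12.0 CPM. The highest ratio was that of ZNF473, a factor of histone pre-mRNA processing, at 3.17, 9.52 and 7.90 CPM, and the lowest that of DCP2, a decapping enzyme, at 51.5, 20.7 and 20.9 CPM. Of 19 histone chaperones and related factors, 6 were lower and 4 higher, beside 39.8% and 23.8% of all genes, from IPO4 (33.5, 9.34 and 10.3 CPM), an importin, to HAT1 (78.2, 145 and 135 CPM), the acetyltransferase of new H4. SLBP belongs to the S-phase list, so its level by phase was used for the phase calls and is not given.

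Replacement histones, whose transcripts are polyadenylated and made outside S phase as well, lay on both sides of their DMSO levels. Of 11 genes, 3 were lower and 1 higher in RAC1i, beside 39.8% and 23.8% of all genes, with a median log2 ratio of 0.01. H2AFX, the histone of DNA damage marking, was at 61.7, 120 and 131 CPM, and H2AFY2, a macroH2A gene, at 23.3, 11.8 and 14.2 CPM. H2AFZ was at 1710, 1722 and 1599 CPM. Of the 43 S-phase list genes, 25 were lower and 2 higher in RAC1i, against 39.8% and 23.8% of all genes, from CDCA7 (12.2, 1.90 and 1.75 CPM) to POLR1B (22.4, 49.5 and 34.8 CPM). Of the 54 G2/M genes, 28 were lower and 5 higher, against the same shares of all genes, from PIMREG (13.5, 3.03 and 2.85 CPM) to CKS1B (270, 739 and 742 CPM).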

How the data were processed

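The authors made 1 10x Genomics 3′ v3.1 library per condition and obtained counts with Cell Ranger 4.0.0 at default settings on GRCh38. The deposited values are raw UMI counts per gene and cell, not normalized, in 3 libraries. Default counting discards reads that fit several genes equally, which bears on near-identical histone genes. Kept barcodes had more than 1000 genes, a mitochondrial share of 20% or less and a complexity score above 0.8. No doublet caller was run. Counts were summed over kept cells and phases and scaled to CPM, with exact Poisson intervals for levels, exact conditional intervals for ratios and Clopper-Pearson intervals for shares. Phase scores followed the study's approach of 2 marker lists, scored over all kept cells with 24 expression bins and 100 control genes per list gene. With 1 library per condition no test across libraries was possible. Cells are not replicates, and no SD is given.

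Genes with a mean of at least 1 CPM were compared with a 1.5-fold limit. Named were members with a mean of at least 10 CPM, the 5 highest and the 5 lowest in RAC1i over DMSO and in S over G1 of DMSO, the most abundant of each type, and in each other list the largest rise and fall, SLBP, NPAT and H2AFZ. Members and lists were chosen with earlier results of these data known. Stem-loops, spans and start sites came from GENCODE 44 and promoters from RefSeq: 69 of 71 members matched by identifier and 2 by symbol, 61 had a promoter in the table, and 22 overlapped another gene on their strand. GENCODE 44 is newer than the reference of the counts, so transcript ends and overlaps given here may differ from those used in counting. Alternatives were TMM (edgeR 4.0.16) and DESeq2 1.42.0 size factors, a total without mitochondrial genes, means over cells, thinning, other cell and gene filters, a 2-fold limit, other phase definitions, and leaving out HIST1H4C. A band of 2 to 4% mitochondrial UMIs was added after the data were seen. Interval code was tested on simulated data. Python 3.11.15, numpy 2.4.6, scipy 1.17.1, pandas 2.3.3, matplotlib 3.10.9 and R 4.3.3 were used.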

Additional observations from a re-analysis of the deposited data

Results flagged for a closer look

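HIST2H2AC differed in direction between cells called S and cells called G1. Its RAC1i to DMSO ratio was 0.865 in S cells and 2.38 in G1 cells, from levels of 47.0 and 40.7 CPM in S and 8.56 and 20.4 CPM in G1. With 1 library per condition the difference between the phases was not tested. Over 5 ways of assigning phase, the S ratio ranged from 0.675 to 0.865 and the G1 ratio from 2.03 to 2.38. In Combo the ratios were 1.08 in S and 2.35 in G1, with ranges over the same 5 ways of 0.873 to 1.08 in S and 1.88 to 2.35 in G1. Along the S score HIST2H2AC was above DMSO in 9 of 10 parts in both RAC1i and Combo, and below it in the highest part, at 40.3 and 52.8 CPM against 72.0 CPM in DMSO.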

How the results depend on the processing

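No paired analysis was possible because each condition is 1 library and no result comes from a test. Ratios here are log2. The summed histone level was 0.18 for RAC1i over DMSO, 0.17 for Combo over DMSO and -0.01 for Combo over RAC1i. In that order the values were 0.258, 0.256 and -0.002 with TMM, 0.361, 0.335 and -0.026 as a mean over cells, 0.28, 0.281 and 0.001 after thinning, 0.08, 0.114 and 0.035 in cells with 2 to 4% mitochondrial UMIs, and 0.049, -0.036 and -0.085 without HIST1H4C. For the first and the second of these ratios they were 0.294 and 0.284 with DESeq2 size factors, 0.114 and 0.0996 without mitochondrial genes, 0.16 and 0.147 with a 10% mitochondrial limit, and 0.229 and 0.219 over every barcode. The sign of the Combo to DMSO sum thus depended on HIST1H4C, and that of Combo to RAC1i on thinning and the mitochondrial band.

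The median member ratio, 0.45 in RAC1i and 0.52 in Combo, was 0.109 and 0.102 over members of at least 10 CPM, 0.563 and 0.634 with DESeq2 size factors, and in RAC1i 0.527 with TMM and 0.383 without mitochondrial genes. At a 2-fold limit 2 members were lower in RAC1i and 4 in Combo, in place of 6 and 7, against 27.6% and 25.9% of all genes, and 14 and 12 were higher, against 15.5% and 14.3%. The level in S cells, 0.16 in RAC1i and 0.29 in Combo, was 0.273 and 0.439 with TMM, 0.283 and 0.438 with DESeq2 size factors, 0.1 and 0.224 without mitochondrial genes, -0.247 and -0.243 without HIST1H4C, 0.09 and 0.232 with phase scored within libraries, -0.017 and 0.104 where cells were called by the ends of the S-list share, and in Combo 0.256 with the shorter S list and 0.177 with phase scored after thinning. The S to G1 ratio, 0.53, 0.13 and 0.38 in DMSO, RAC1i and Combo, was 0.004, -0.435 and -0.352 without HIST1H4C. It was 0.48 in DMSO and 0.358 in Combo without the cells of most UMIs, 0.115 in RAC1i and 0.4 in Combo within libraries, 0.156 in RAC1i with the shorter list, 0.248 in Combo after thinning, and 0.724 in DMSO and 0.336 in Combo by the ends of the S-list share. The share of S cells was 29.3%, 12.3% and 20.8% within libraries, 32.0%, 21.3% and 23.6% with the shorter list, and 28.2% in DMSO and 16.8% in RAC1i after thinning. Where a value moved, the cause was not tested.

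For Combo over RAC1i, H1 was at -0.029 as a mean over cells, H2A at 0.002 after thinning and 0.057 in the mitochondrial band, and H3 at 0.04 in that band, against 0.04, -0.03 and -0.07. Over 9 settings the RAC1i to DMSO ratio ranged from -0.886 to -0.674 for H1, from 0.231 to 0.745 for H4, from 0.051 to 0.56 for HIST1H4C, from -4.55 to -4.01 for HIST1H1D and from 2.11 to 2.31 for HIST3H2A. H2B in Combo over DMSO ranged from -0.083 to 0.517.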
